A study of Mus musculus with 7 samples.

Results

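A set of 1728 H3K18La peaks of the mouse retina, 1.60% of the 108253 merged peaks of the study, carried more signal at postnatal day 10 (P10) than at P4 or P28. They were chosen by their level. The mean of the 2 P10 libraries had to reach 15 RPKM, that is, reads divided by the length of the peak and by a normalized library size, and both P10 values had to lie above each of the 5 P4 and P28 values. Both P10 values were above all 5 others at 12912 peaks, 11.9% of those measured, and 11184 of these were under the level threshold. In the other direction, 3958 peaks reached 15 RPKM at P10 and 43.7% of them met the whole rule. The height at P10 and the lower values at the other ages are therefore what selected these peaks, and they are given below as a description with no test. The set also depended on how the libraries were scaled. After quantile normalization 797 peaks met the rule, 679 of them in the set. After median centring 2759 did, 1717 of them in the set.

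H3K18La is histone H3 carrying a lactyl group on lysine 18, a modification fed by lactate and found at active promoters and enhancers. The retina is a tissue that turns much of its glucose into lactate even when oxygen is plentiful, and photoreceptors account for most of that. P10 falls in the stretch when cell division has nearly ended, rods are growing their outer segments and synapses of the outer retina are forming, shortly before the eyes open. By P28 the retina is mature.

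The libraries were CUT&Tag assays, in which an antibody to the mark brings a transposase to the chromatin so that the DNA around it can be sequenced. All animals were C57BL/6J mice with no genetic change and no treatment, and the retinas were dissociated with papain to give 500000 cells per assay. P4 and P10 had 2 libraries each and P28 had 3, from animals 4, 10 and 28 days old, and by the labels P28 replicate 1 alone came from batch 2. Whole retinas were used, so fewer cells of a type and less of the mark per cell cannot be told apart. The labels number the replicates without tying them to separate animals, so the p-values below measure the spread between libraries.

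The DNA under 7 of the peaks is shown in windows of 200 bases, chosen for the level or the gene of the peak. They were taken near the middle of the peak, from the plus strand of GRCm38 and outside annotated UTRs. They are the peak with the highest P10 level (Gm12802, chr4:107128493-107128692), 2 peaks that in the deposited scaling were back near their P4 level by P28 (Gm12121, intergenic, chr11:34170311-34170510, and an intron of Gm48622, chr13:54322641-54322840), promoters of the photoreceptor genes Ankrd33 (chr15:101115915-101116114), Nr2e3 (chr9:59951108-59951307) and Gnb3 (chr6:124840276-124840475), and an intron of Esrrb (chr12:86507721-86507920). Capitals mark matches on either strand to GGATTA, the core bound by the photoreceptor factors CRX and OTX2, to AGGTCA, recognized by ROR and other nuclear receptors, and to CAGCTG or CAGATG, E-boxes bound by basic helix-loop-helix factors. The windows of Gm48622 and Nr2e3 hold none of these motifs, and that of Nr2e3 overlaps an exon of Gm7616.
Gm12802: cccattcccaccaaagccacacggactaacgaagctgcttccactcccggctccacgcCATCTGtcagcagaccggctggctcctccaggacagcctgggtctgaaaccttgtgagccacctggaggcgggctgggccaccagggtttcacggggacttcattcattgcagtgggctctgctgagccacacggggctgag
Gm12121: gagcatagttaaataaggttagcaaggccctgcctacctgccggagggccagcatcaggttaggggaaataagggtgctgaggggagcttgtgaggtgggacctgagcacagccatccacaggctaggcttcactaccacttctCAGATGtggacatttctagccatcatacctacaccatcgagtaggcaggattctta
Gm48622: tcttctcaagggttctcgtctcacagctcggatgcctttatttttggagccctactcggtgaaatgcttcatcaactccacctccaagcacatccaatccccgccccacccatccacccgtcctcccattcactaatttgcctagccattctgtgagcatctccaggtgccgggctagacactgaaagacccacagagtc
Ankrd33: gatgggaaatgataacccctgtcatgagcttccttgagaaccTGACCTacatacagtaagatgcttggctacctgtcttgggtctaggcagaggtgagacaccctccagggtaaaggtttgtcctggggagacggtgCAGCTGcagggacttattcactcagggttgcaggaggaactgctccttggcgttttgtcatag
Nr2e3: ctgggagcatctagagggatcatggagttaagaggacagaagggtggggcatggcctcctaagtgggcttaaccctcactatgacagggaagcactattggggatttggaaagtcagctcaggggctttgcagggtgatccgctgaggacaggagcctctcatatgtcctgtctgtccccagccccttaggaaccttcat
Gnb3: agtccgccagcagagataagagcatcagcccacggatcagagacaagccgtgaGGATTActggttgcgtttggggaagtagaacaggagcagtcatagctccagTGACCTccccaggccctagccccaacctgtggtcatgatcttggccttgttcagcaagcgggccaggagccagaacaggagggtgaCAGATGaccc
Esrrb: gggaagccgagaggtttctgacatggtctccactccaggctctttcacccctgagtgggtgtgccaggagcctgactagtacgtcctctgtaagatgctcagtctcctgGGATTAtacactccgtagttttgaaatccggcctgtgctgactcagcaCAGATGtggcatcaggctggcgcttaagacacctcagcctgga

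The same letters were counted in the central 300 bases of every peak. GGATTA was present in 14.4% of the 1728 windows, against 16.5% of the other peaks that reached the P10 threshold and 11.5% of all peaks. At promoters the order was different. Of the 238 promoter windows 16.4% held GGATTA, against 10.6% of the other promoters over the threshold and 6.95% of all promoter peaks. AGGTCA was found in 24.2% of the windows, CAGCTG in 24.1% and CAGATG in 27.1%, against 23.9%, 22.4% and 25.7% of the other peaks over the threshold and 21.1%, 20.5% and 25.2% of all peaks. The GC box GGGCGG was in 29.0% of the promoter windows, in 37.2% of the other promoters over the threshold and in 44.8% of all promoter peaks. Their CpG content differed in the same sense, since an observed to expected ratio above 0.6 was reached by 27.3% of these promoters, 41.2% of the other promoters over the threshold and 53.1% of all promoter peaks. Promoters that peaked at P10 were thus poorer in CpG than promoter peaks at large, and outside promoters the median GC content was 51.7%, against 51.0% in the other peaks over the threshold and 49.0% in all. Both strands were read, and none of these motifs contains another. These are counts of letters in a window, not of bound sites.

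The level of the 1728 peaks followed a low, high, intermediate course. Their median was 3.31 and 3.86 RPKM in the P4 libraries, 20.6 and 26.6 RPKM in the P10 libraries, and 9.71, 12.04 and 13.2 RPKM in the P28 libraries. At P28 the peaks held a median of 49.7% of their P10 mean, with quartiles of 35.0% and 61.5%, and at P4 they held 13.7%. In the deposited scaling 1421 had all 3 P28 values above both P4 values and 46 had all 3 below, and how far P28 stands above P4 depends on that scaling, as given with the tests. The highest of the 5 other values was a P28 value at 1609 peaks and a P4 value at 119. They took 16.5% and 15.003% of the reads in peaks of the P10 libraries, against 5.80% and 6.00% at P4 and 6.999%, 7.09% and 6.93% at P28.

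**Figure D1:**
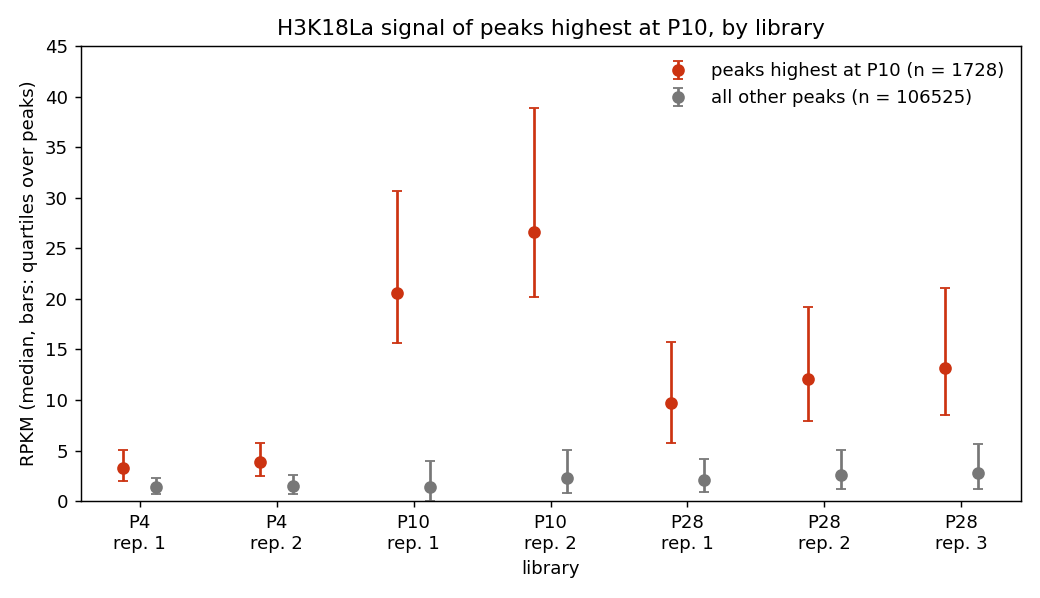
Median RPKM (vertical axis) of the 1728 peaks highest at P10 (red) and of the 106525 other peaks (grey) in each of the 7 libraries (horizontal axis), with bars from the lower to the upper quartile over peaks. The red medians are 3.31 and 3.86 at P4, 20.6 and 26.6 at P10, and 9.71 to 13.2 at P28. The rule itself placed P10 above the other ages and set no order between P4 and P28.

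The margin by which P10 stood above the rest was often narrow. The lower P10 value was a median of 1.39 times the highest of the other 5, at least 2 times at 362 peaks and under 1.1 times at 267. The reads behind these values were few in some libraries. The total over all peaks ran from 199970 reads in P10 replicate 1 to 8274373 in P28 replicate 2, and the median peak of the set held 8 and 7 reads at P4, 13 and 41 at P10, and 40, 222 and 85 at P28. In P10 replicate 1 a single read was worth 1.55 RPKM at their median width of 1163.5 bases, and 73 peaks had 3 reads or fewer there. At least 10 reads in both P10 libraries were found at 1111 peaks. The exact Poisson 95% intervals of both P10 libraries lay above those of all 5 others at 241 peaks, and these intervals cover counting error only.

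The 2 P10 libraries did not give the same height. The second was higher at 1367 of the 1728 peaks, with a median ratio of 1.29 (quartiles 1.05 and 1.58). Each library was therefore also used alone to choose peaks, and the other was then looked at. It had no part in the choice, but the same 5 P4 and P28 values served in both steps, which raises the shares that follow, and they are a description only. Of 1795 peaks chosen on P10 replicate 1, 84.1% were above all 5 other values in replicate 2 as well, where 27.0% of all peaks and 66.5% of those at 15 RPKM or more in replicate 1 were. Of 4234 chosen on replicate 2, 49.7% held in replicate 1, beside 19.5% of all peaks and 38.4% of those at the same level. The rule without P10 replicate 1 thus gave 4234 peaks in place of 1728.

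On either side of the level threshold the values were close together. The lowest peaks inside it were an intron peak of Gm43154, with 13.0 and 17.0 RPKM at P10, and a peak in an intron of Fam53b, with 13.3 and 16.7, to which the deposited annotation gives the symbol Fgfr2. The nearest outside were an intron peak of Gm47782, with 10.1 and 19.9, and an intron peak of Akna, with 16.01 and 13.98. In P10 replicate 1 these 4 values rested on 10, 9, 2 and 4 reads.

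Most of the 1728 peaks lay outside promoters, as did most of all peaks. Introns held 776 (44.9%, against 42.01% of all peaks), distal intergenic regions 538 (31.1% against 32.8%) and promoters 238 (13.8% against 15.8%). Exons held 105 (6.08% against 6.06%) and 3' UTRs 64 (3.70% against 2.59%). In 5' UTRs there were 4 (0.23% against 0.55%) and downstream of genes 3 (0.17% against 0.16%). Their median distance to a start site was 27921.5 bases, and 24353 bases for all peaks. Peaks assigned to lincRNAs, long RNAs that code for no protein, made up 18.6% of them and 12.9% of all peaks. Among the classes with over 100 tall peaks, promoters were least often highest at P10. Of the peaks with a P10 mean of 15 RPKM or more, 33.5% of 711 promoters met the rule, 43.6% of 1781 introns, 49.5% of 1087 distal intergenic peaks and 53.8% of 119 peaks in 3' UTRs. The 238 promoters also kept more at P28, a median of 59.4% of the P10 level, while the other classes with over 50 peaks kept 47.0% to 51.0%.

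**Figure D2:**
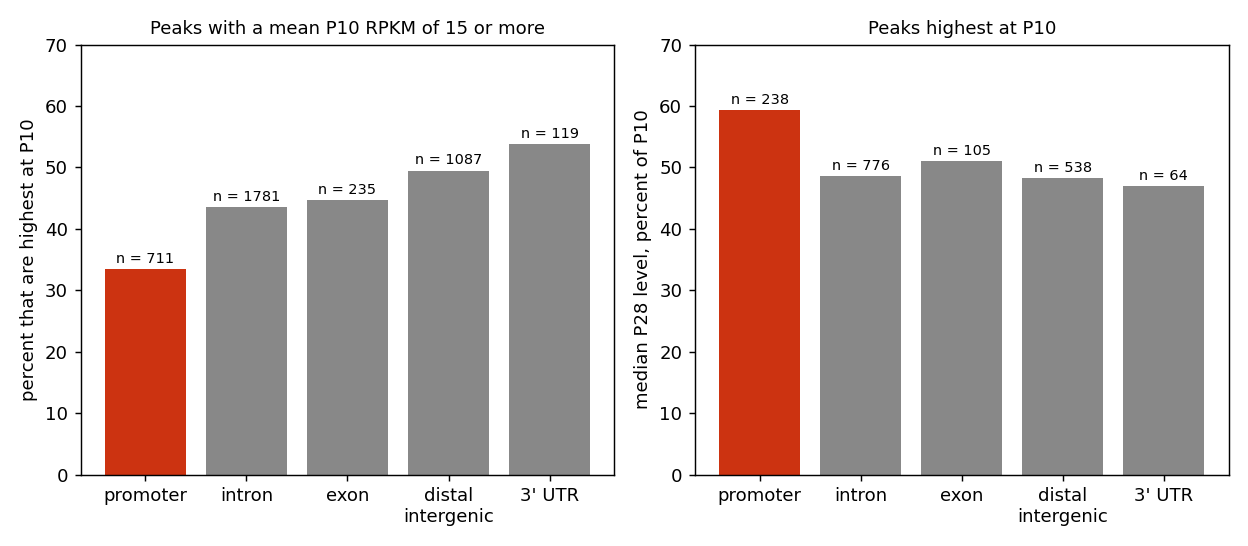
Left, the percent of peaks in each of the 5 annotation classes with over 100 such peaks, among those with a mean P10 RPKM of 15 or more, that are highest at P10, from 33.5% of promoters to 53.8% of 3' UTR peaks. Right, the median P28 level of the peaks highest at P10 as a percent of their P10 mean, 59.4% at promoters (red) and 47.0% to 51.0% in the other 4 classes drawn. The n above a bar is its number of peaks.

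How far the mark had fallen by P28 varied over the set, and most peaks lay between the 2 ends given here. At 119 peaks (6.89% of the set) less than 20% of the P10 level was left, and 4 of these were promoters. At 105 peaks (6.08%) 75% or more was left, and 32 were promoters. At 255 peaks the P28 mean was at most 1.5 times the P4 mean in the deposited scaling. Their medians were 5.17 RPKM at P4, 19.4 at P10 and 5.09 at P28, a return to about the P4 level that the choice itself asked for. It depends on the scaling. With libraries scaled to their reads in peaks, the median log2 change of the whole set from P4 to P28 was 0.26 in place of 1.55. Of these 255 peaks 98 were distal intergenic, 115 intronic and 18 promoters.

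The highest P10 level was in an intron of Gm12802, an antisense transcript of unknown role (chr4:107128005-107129181), shown above. It measured 20.1 and 23.8 RPKM at P4, 215 and 214 at P10 and 77.3, 80.4 and 92.6 at P28. The ages did not overlap there, and between 47 and 1540 reads stood behind each value. The nearest start site of a protein-coding gene was that of Cdcp2, 31.7 kb away. Next was an intergenic peak named for the pseudogene Gm9586 (chr17:49153515-49155600), with 8.93 and 17.2 RPKM at P4, 119 and 161 at P10 and 87.0, 75.6 and 91.2 at P28. A peak 21.0 kb before Strap (chr6:137713035-137714089), which encodes a WD-repeat protein of the SMN complex, had 15.9 and 14.1, then 130.05 and 130.02, then 64.2, 65.6 and 81.0. In each of these the P28 values lay between the other ages.

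Others of the 15 highest lay within protein-coding genes. An exon of Camk2b (chr11:5974936-5976780), the beta subunit of calmodulin-dependent kinase II, went from 14.3 and 12.9 RPKM at P4 to 114 and 121 at P10, and to 31.3, 37.0 and 43.2 at P28. Its 31.6% kept at P28 was the lowest of the 15. An intron of Prkce (chr17:86622559-86624081), protein kinase C epsilon, had 7.76 and 8.23 RPKM, then 101 and 116, then 48.8, 47.4 and 53.4. An intron of Nfasc (chr1:132720820-132721917), the axonal adhesion protein neurofascin, had 8.28 and 9.78, then 93.7 and 113, then 54.0, 51.4 and 61.7. In all 3 the P28 values were above both P4 values. An intron of Camta1 (chr4:151786390-151787489), a calmodulin-binding transcription activator, kept the most at P28, 65.7%, and its P10 values of 93.5 and 138 RPKM were at the lower end 1.097 times its highest P28 value of 85.3. Ccn4 (chr15:66914653-66915926), a secreted matrix protein, had an intron peak of 112 and 128 RPKM at P10 after 21.4 and 18.7 at P4, with 33.4, 40.9 and 46.9 at P28. Sema7a, a membrane-anchored semaphorin, and Gse1, a corepressor component, were also among the 15.

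The sharpest rise and fall was seen at other peaks, which were lower at P10. Among those with at least 10 reads in both P10 libraries, the largest ratio was in the 3' UTR of Spryd3 (chr15:102115395-102116846), with 2.19 and 2.05 RPKM at P4, 27.4 and 33.7 at P10 and 2.17, 2.71 and 1.55 at P28. Its lower P10 value was 10.1 times the highest of the others. The reads were 7, 5, 22, 62, 12, 64 and 13, so P28 replicate 2 had about as many reads there as P10 replicate 2, with 8274373 against 660740 reads in all peaks. The Gm12121 peak (chr11:34169076-34171746) had 4.42 and 2.90 RPKM, then 33.1 and 41.6, then 2.75, 4.07 and 3.56. A Gm48622 intron (chr13:54322012-54323471) had 5.29 and 3.68, then 54.4 and 62.6, then 5.57, 6.69 and 7.33. In these peaks the P4 and P28 values overlapped or lay close together, far below both P10 values. The promoter of the neighbouring lincRNA Gm48623 (chr13:54302244-54304159) behaved likewise, with 6.88 and 6.85, then 39.6 and 58.8, then 4.93, 7.80 and 8.38.

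An intron of Rbfox3 (chr11:118729151-118729690), the splicing factor known as the marker NeuN, had 5.89 and 5.53 RPKM at P4, 50.1 and 38.0 at P10 and 4.37, 7.06 and 6.08 at P28. An intron of Sorcs2 (chr5:36372667-36374492), a sorting receptor of the VPS10 family, had 7.22 and 11.4, then 64.3 and 76.8, then 9.77, 11.9 and 12.01. The other members of the 15 were at 4930445E18Rik, Endov, Diras2, Gm44219, Gm25200, Slc24a4, Trappc9, Fignl2 and Zmiz1, with ratios of 4.28 to 7.37. In 4930445E18Rik the P10 libraries themselves were far apart, at 43.9 and 16.3 RPKM. Over the 15 peaks 4.49% to 20.9% of the P10 level was left at P28.

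The annotation assigns a promoter peak to the start of 1 transcript. At starts of protein-coding transcripts 115 peaks of 111 genes belonged to the set, and the 4 highest of these were at photoreceptor genes. Another 48 lay at starts of other transcripts of protein-coding genes, and 15 of them had a higher P10 mean than the last of the 15 promoters named here, among them peaks of Pcbp3 (86.1 RPKM), Ccn4 (71.4), Samd7 (67.6), Gas7 (58.4) and Unc5b (55.3), whose transcripts there are not protein-coding. The promoter of Ankrd33 (chr15:101115239-101117000), a photoreceptor ankyrin-repeat protein that restrains CRX activity, had 7.99 and 9.82 RPKM at P4, 86.1 and 99.8 at P10 and 40.2, 43.4 and 47.0 at P28. That of Nr2e3 (chr9:59948856-59953561), the nuclear receptor that keeps cone genes silent in rods, had 6.57 and 7.86, then 69.4 and 59.3, then 30.2, 32.8 and 36.0. At both promoters the P28 values were about the middle between P4 and P10, and the ages did not overlap. Gnb3 (chr6:124839144-124841484), the transducin beta subunit of cones, had 4.08 and 6.63, then 50.1 and 63.0, then 23.4, 28.9 and 27.3. Grk1 (chr8:13402949-13405486), the opsin kinase that shuts off the light response, had 7.34 and 7.76, then 50.5 and 44.4, then 29.0, 31.5 and 34.3. Grk1 kept 66.6% at P28 and Gnb3 46.9%.

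**Figure D3:**
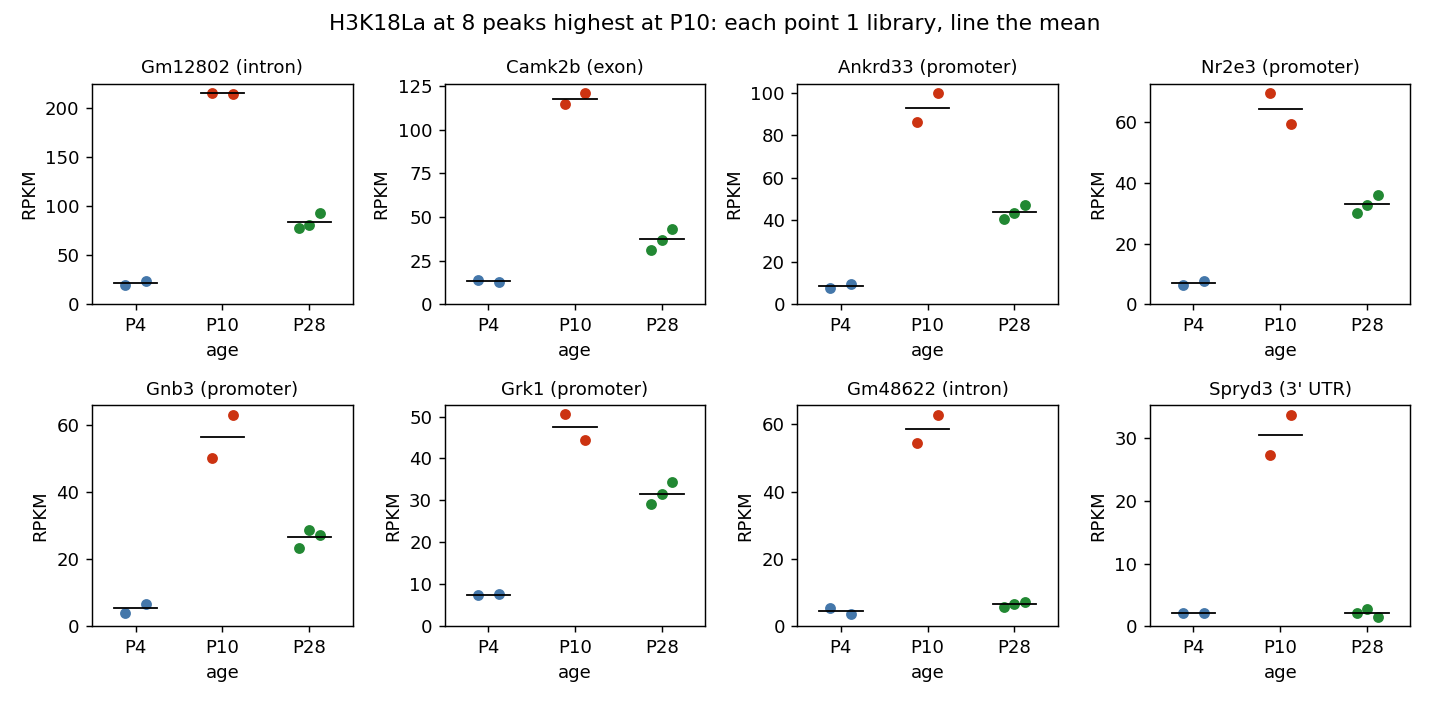
RPKM (vertical axes, each from 0) at P4, P10 and P28 for 8 peaks highest at P10, with 1 point per library and a line at the mean. Gm12802 reaches 215 and 214 at P10, the 4 photoreceptor promoters hold 46.9% to 66.6% of their P10 mean at P28, and Gm48622 and Spryd3 are at 11.2% and 7.02%.

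The remaining promoters among the 15 highest at protein-coding transcripts had P10 means between 36.9 and 45.3 RPKM. Rdh8 (chr9:20817909-20819248), the outer segment enzyme that reduces all-trans-retinal, had 3.05 and 3.12 RPKM at P4, 31.0 and 43.5 at P10 and 22.9, 25.8 and 27.3 at P28. Fos (chr12:85473474-85475134), an immediate early gene and AP-1 subunit, had 3.56 and 4.67, then 31.5 and 43.7, then 14.7, 20.2 and 18.1. Bhlhe41 (chr6:145865355-145867081), a repressor of the circadian clock, had 4.21 and 3.46, then 39.7 and 34.7, then 22.5, 26.5 and 30.8. All 3 were lowest at P4 in both libraries. Slco4a1, Tepp, Plekhb1, Tpd52, Fam110a, Osbp2, Kdm4c and Ptp4a3 completed the 15. Some lay at a transcript start away from that of the gene model. The distance was 40.4 kb at Tpd52, 9.45 kb at Nr2e3, 7.5 kb at Fam110a and 4.89 kb at Slco4a1. At Osbp2 the nearest start of a protein-coding gene was that of Morc2a, 73.6 kb away. Osbp2, an oxysterol-binding protein, was barely inside the rule, its lower P10 value of 34.1 RPKM being 1.01 times its highest P28 value of 33.8. Kdm4c, a histone H3 lysine 9 demethylase, had the highest P4 level, 10.8 and 11.6 RPKM.

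Genes of the retinal cell types were then looked up in lists, to see where the peaks lay. The highest shares were in the lists of photoreceptor factors and of rod genes. Of 135 peaks at 10 photoreceptor transcription factors 12 were in the set (8.89%), at Esrrb (8 peaks), Mef2d, Nr2e3, Nrl and Prdm1. Of 166 peaks at rod genes 9 were (5.42%), at Grk1, Pde6g, Prph2, Samd7 and Slc24a1, and of 142 at cone genes 5 (3.52%), at Gnb3 and Thrb. Ganglion cell genes had 3 of 71 (4.23%). The share over all peaks was 1.60%. No peak of the 140 at bipolar cell genes was in the set, 1 of 145 at Mueller glia genes (Cp), and 1 of 98 at progenitor and cell cycle genes (Six3). These lists hold unequal numbers of high peaks, since 33 peaks at photoreceptor factors reached 15 RPKM at P10, 17 at rod genes, 4 at bipolar genes and 1 at Mueller glia genes. Of such tall peaks 36.4% met the rule at photoreceptor factors, a share below the 43.7% of all tall peaks. The share was 52.9% at rod genes, 55.6% of 9 at cone genes and 57.1% of 7 at amacrine and horizontal cell genes. At ganglion cell genes 3 of 3 did, at progenitor and cell cycle genes 33.3% of 3 and at bipolar cell genes 0% of 4. Of the 12 at photoreceptor factors, 8 were at Esrrb alone. Genes of other cells a retinal preparation could carry gave 1 of 26 peaks for microglia and blood (C1qb), 0 of 37 for vessel cells and astrocytes and 0 of 51 for pigment epithelium and lens. Their part in the set was not tested beyond these counts.

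Esrrb, an orphan nuclear receptor expressed in rods, had the most peaks of any listed gene. They spanned 109.2 kb, with medians of 1.28 and 2.14 RPKM at P4, 22.1 and 29.8 at P10 and 11.1, 14.6 and 16.4 at P28. Its strongest, the intron peak shown above (chr12:86507208-86508435), had 2.59 and 6.80 RPKM at P4, 82.3 and 117 at P10 and 45.7, 56.4 and 63.1 at P28. The P10 mean was 21.2 times the P4 mean there, over 7 and 14 reads at P4. At Samd7, a photoreceptor protein that takes part in Polycomb silencing, the promoter peak (chr3:30746024-30746805) had 10.5 and 6.87, then 64.6 and 70.6, then 23.1, 34.0 and 34.9. At Nrl, the factor that specifies rods and a gene picked out here after its values were seen, the promoter peak had 2.73 and 2.15, then 18.4 and 18.5, then 10.2, 17.5 and 18.3, so that P28 replicate 3 nearly reached the P10 values.

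In the list for amacrine and horizontal cells 4 of 124 peaks were in the set (3.23%), all at Ebf3, and in the list for retinal ganglion cells all 3 were at Ebf1, both helix-loop-helix factors. The highest at Ebf3 (chr7:137226638-137227499), annotated as a promoter from a transcript start 87.4 kb from that of the gene, had 3.16 and 6.23 RPKM at P4, 35.6 and 60.4 at P10 and 19.2, 28.7 and 31.3 at P28. Among axon guidance and adhesion genes 10 of 497 peaks (2.01%) were in the set, at Cdh4 (5), Slit1 (4) and Plxna2. The strongest of these, in an intron of Slit1 (chr19:41697469-41698018), a repellent ligand of Robo receptors, had 10.7 and 13.0, then 55.8 and 84.6, then 23.9, 28.3 and 29.5. Among synaptic genes, 4 of 323 peaks (1.24%) were, at Nrxn3 and Cplx3. The Nrxn3 intron (chr12:88818599-88819968), in a gene for a presynaptic adhesion molecule, had 19.6 and 21.3 at P4, 79.1 and 84.0 at P10 and 19.5, 30.1 and 32.9 at P28, and its P4 and P28 values overlapped. Among the 25 glycolysis and lactate genes, 2 of 88 peaks (2.27%) qualified. These 3 shares are near the 1.60% over all peaks. Among tall peaks 45.5% of 22 met the rule at axon guidance and adhesion genes, 28.6% of 14 at synaptic genes and 40% of 5 at glycolysis and lactate genes. The Hk1 intron (chr10:62299669-62301159), in the gene for a hexokinase that phosphorylates glucose, had 10.4 and 12.8, then 59.3 and 71.9, then 34.5, 38.9 and 43.7. A peak 1.65 kb before Ldha (chr7:46838516-46839829), the enzyme that makes lactate, had 5.19 and 5.00, then 35.7 and 48.6, then 27.4, 29.3 and 33.6.

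The peaks lay in groups along the chromosomes. The next merged peak on either side was also in the set for 751 of the 1728 (43.5%), while 2.23% of the peaks outside the set lay beside one in it. Tall peaks lie together in general, since 38.3% of the other 2230 peaks over the threshold lay beside another of their kind. The 43.5% depended on reads and scaling. It was 28.3% with at least 10 reads in both P10 libraries, 20.3% with separate counting intervals and 32.0% after quantile normalization. It was 50.9% when scaled to reads in peaks and 52.0% after median centring. With gaps of up to 50 kb there were 180 clusters of 3 or more, holding 896 peaks (51.9%), and 69 of 5 or more, while 516 peaks were alone. Such clusters were not counted for the other peaks over the threshold. Whether these numbers are particular to the set was therefore not tested. Of the 362 peaks with a ratio of 2 or more 56.1% were in clusters of 3 or more, and of the rest 50.7%, a difference that was not tested. Chromosome 15 carried 160 of the peaks, 9.26% of the set and 4.56% of all peaks. It also held 7.20% of all peaks over the threshold. Of its 285 such peaks 56.1% met the rule, against 43.7% of all peaks over the threshold. The 5 Mb of chromosome 10 from 115 Mb held 32 of the set among 428 peaks, 45 of them over the threshold. The 5 Mb from 70 to 75 Mb of chromosome 15 held 51 among 500 peaks, 77 of them over the threshold. That was the most of any such stretch.

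The largest cluster lay in that stretch, at Gm15387 and AC119183.1 (chr15:74144449-74342680), where 24 of 64 peaks over 198.2 kb were in the set. Their median was 3.19 and 3.58 RPKM at P4, 18.6 and 25.3 at P10 and 8.03, 10.3 and 10.9 at P28. At Gse1 (chr8:120289379-120428905) 19 of 45 peaks qualified, with medians of 3.68 and 5.15, then 27.2 and 33.7, then 14.3, 18.7 and 18.7. At Slc24a4 (chr12:102142106-102217991), a sodium, calcium and potassium exchanger gene, 18 of 24 peaks did, the highest share of the 3. The Slc24a4 cluster also fell furthest, from medians of 20.2 and 24.8 at P10 to 4.75, 6.61 and 6.16 at P28, against 3.37 and 3.11 at P4.

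**Figure D4:**
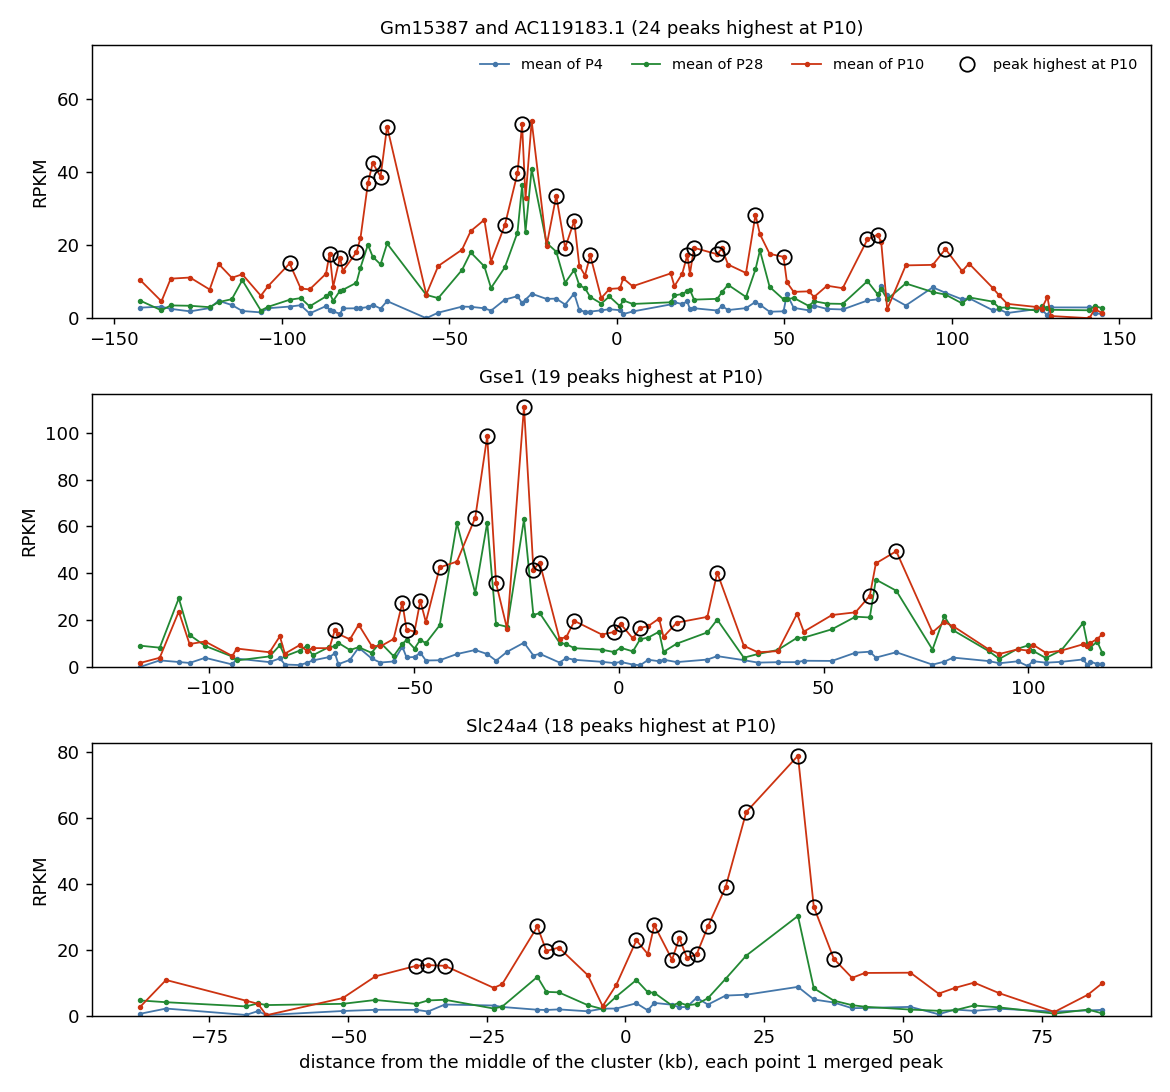
Mean RPKM at P4 (blue), P10 (red) and P28 (green) for every merged peak in and around the 3 largest clusters, against the distance in kb from the middle of the cluster. Circles mark the peaks highest at P10, 24 at Gm15387 and AC119183.1, 19 at Gse1 and 18 at Slc24a4, where the green line is nearest to the blue.

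Peaks carry the symbol that the deposited annotation assigned, and of the peaks in an exon or intron 847 lay in that gene and 34 in another. By gene, 921 symbols had at least 1 peak of the set, 580 had 1, 280 had 2 to 4 and 61 had 5 or more. Gse1 had the most with 22, which was 21.6% of its peaks, followed by Slc24a4 with 18 of 50, Gm15387 with 17 of 54, Tspan9, a tetraspanin, with 12 of 45 and Jazf1, a zinc finger protein of a histone acetyltransferase complex, with 11 of 62. Prkce tied with Jazf1, with 11 of 108. All 12 of Tspan9 and all 11 of Jazf1 were intronic. So were the 22 of Gse1, 19 of them by an overlapping gene model. At Tspan9 the medians were 4.45 and 4.84 RPKM at P4, 15.9 and 25.5 at P10 and 7.70, 8.97 and 10.3 at P28. At Jazf1 they were 2.28 and 3.32, then 19.5 and 24.0, then 8.41, 10.6 and 10.2.

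Peaks outside the set but within 10 kb of it gave a view that the rule had not fixed peak by peak. There were 3925 of them. Their median log2(RPKM + 1) exceeded that of all farther peaks by 0.31 and 0.39 in the P4 libraries, by 1.76 and 1.96 at P10 and by 1.05, 1.21 and 1.22 at P28. The excess was 1.51 larger at P10 than at P4 (1.86 ± 0.14 against 0.35 ± 0.06, SD, n = 2 each, two-sided exact permutation p = 0.33, the smallest that 2 against 2 libraries allow). From P10 to P28 it fell by 0.70 to 1.16 ± 0.10 (SD, n = 3, two-sided exact permutation p = 0.2, again the smallest possible). In every library at P10 the neighbours stood further above the rest than in any library of the other ages. Neighbouring peaks share local signal with the peaks chosen, so this is a description of the surroundings and no separate choice of loci. The 2 p-values decide nothing. So few libraries could pass no threshold, and closeness to peaks chosen for their P10 height favoured a high P10 value beforehand.

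**Figure D5:**
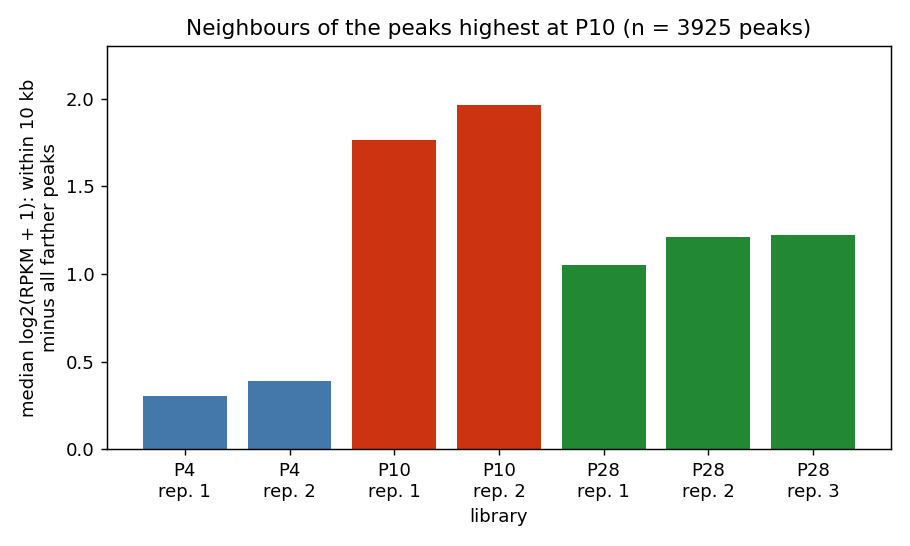
Difference in median log2(RPKM + 1) between the 3925 peaks within 10 kb of a peak highest at P10 and all farther peaks, 1 bar per library and none of the selected peaks included. The bars are 0.31 and 0.39 at P4 (blue), 1.76 and 1.96 at P10 (red) and 1.05 to 1.22 at P28 (green).

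For the set itself, tests of P10 against the other ages are not given, since the rule used those contrasts. Between P28 and P4, limma on log2(RPKM + 1) over all peaks called 1004 higher at P28 at an adjusted p under 0.01 (58.1%, background 18.9%) and 2 lower (background 4.21%). Among peaks at or above the median signal 60.5% of the set were called higher, with a background of 35.9%. The values of both ages served as upper limits in the rule, so these counts are a description and no test of the set. The median log2 change was 1.55, against 0.68 over all peaks. The number of these calls depended on how the libraries are scaled. With each library scaled to its reads in peaks, which moved the median of all peaks to -0.29, 267 were called higher (15.5%, background 7.17%) and 155 lower (8.97%, background 15%), with a median change of 0.26 in the set. After quantile normalization 328 were called higher (background 12.6%) and 177 lower (background 13.5%). The share of reads in peaks was 16.3% and 17.6% at P4, 36.1% and 52.1% at P10 and 42.4%, 50.9% and 57.1% at P28, and its part in the result was not tested. Calls fell over all peaks too when a library was left out. Without P28 replicate 2, 560 of the set and 9010 of all peaks were called higher, and without P28 replicate 3, 593 and 9150. The main fit called 20488 of all peaks. Leaving out P4 replicate 1 or 2 left 1 P4 library. The median log2 change was then 1.47 or 1.62 in the set and 0.62 or 0.67 over all peaks. Without P28 replicate 1, the library of the other batch, 807 of the set and 12493 of all peaks were called higher. The rule then gave 1734 peaks that included all 1728.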

How the data were processed

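The 7 H3K18La CUT&Tag libraries of C57BL/6J retina were grouped by age from their labels. The study's text speaks of 3 replicates, and the 2 at P4 and 2 at P10 given here were used. The authors aligned reads to GRCm38 with nf-core/cutandrun 3.1, called peaks with MACS (-log10 q over 6, seen in at least 2 replicates), merged the ages, annotated peaks with ChIPseeker 1.34.1 on Ensembl genes (promoter, -1000 to 500 bases around a start site) and counted reads with csaw 1.32.0, normalized on windows of 10000 bases. The deposited values are RPKM, made by the authors from these reads. Deposited fold changes and p-values of the authors' own comparison were not used. Multiplying RPKM by peak width gave whole steps of a constant per library for 100.0% of values (tolerance 0.02 reads), and so the reads per peak. Count tests were replaced by limma 3.58.1 (R 4.3.3) on log2(RPKM + 1), variance trend, all 7 libraries and 108253 peaks, Benjamini-Hochberg adjustment, threshold 0.01, checked on simulated data. These differences understate changes of low peaks. Measures with 1 value per library used exact permutation tests. The peaks, gene lists and naming rules were chosen with earlier results of these data known. Named were the 15 peaks with the highest P10 mean, the 15 with the largest ratio of the lower P10 value to the highest other (at least 10 reads in both P10 libraries), the 15 highest promoters of protein-coding genes (read as peaks assigned to a protein-coding transcript), up to 3 peaks per gene list, the 3 largest clusters, 2 peaks on either side of the threshold and the 5 genes with most peaks. Windows were read from the RefSeq GRCm38.p6 genome, and start sites from GENCODE vM21. Alternatives covered the thresholds, scaling, depth, pseudocount, test and each library left out.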

Additional observations from a re-analysis of the deposited data

How the results depend on the processing

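In place of 1728 peaks, the rule gave 3280 at a P10 threshold of 10 RPKM and 1075 at 20, 1111 with at least 10 reads in both P10 libraries, 241 with separate counting intervals, 2759 after median centring and 797 after quantile normalization, of which 679 were in the set. Leaving out single libraries gave 1729 to 4234. Of the 45 peaks named for their P10 mean, their ratio or as promoters, 31 met the rule after quantile normalization. With separate counting intervals 31 did, and 41 after thinning to the shallowest library. The share lying beside another (43.5%) was 28.3% with at least 10 reads, 20.3% with separate intervals, 50.9% when scaled to reads in peaks, 52.0% after median centring, 32.0% after quantile normalization, 33.9% after thinning to the shallowest library, and 35.1% to 59.9% without single libraries. The promoter share was 17.9% with at least 10 reads and 12.5% to 15.9% without single libraries. Calls higher at P28 than at P4 (1004) were 267 when scaled to reads in peaks, 328 after quantile normalization and 415 to 1174 without single libraries. Calls lower (2) were 0 and 1 with pseudocounts of 0.1 and 0.5, 155 scaled to reads in peaks, 26 after median centring, 177 after quantile normalization, 9 with voom (limma on the recovered reads) and 0 to 7 without single libraries. With the replicate block, 853 were higher and 2 lower, and same-numbered libraries did not deviate together (correlations up to 0.05), so the numbers were not taken as pairs. The neighbours' excess was 1.80 (P10 minus P4) and -0.90 (P28 minus P10) with a pseudocount of 0.1, and 1.41 to 1.61 and -0.80 to -0.60 without single libraries. Held-out shares were 78.0% and 46.7% at a threshold of 10, and 86.8% and 52.6% at 20. The cause of these shifts was not tested. Clusters of 3 or more (180) were 146 with gaps of 10 kb and 190 with 100 kb. In P10 replicate 1, 73 of the peaks had 3 reads or fewer.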
